A study of Mus musculus with 15 samples.

Results

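The genes described here were 55 mouse genes of the extracellular matrix, chosen by symbol and by the role of their products: elastic fibre, crosslinking, proteoglycan, basement membrane and matricellular genes, with the collagens left out. All 55 had a row among the 26301 genes counted in each of 15 RNA-seq libraries of 3T3-L1 cells, a mouse preadipocyte line that turns into fat cells when it is given a hormone cocktail. Every library was made on day 2 after IBMX (115 µg/mL), dexamethasone (1 µM) and insulin (1.67 µM) were added, and each of 5 groups had 3 libraries. The sh-Empty control carried a retrovirus without a hairpin, and sh-Jmjd1a carried a hairpin against Jmjd1a (gene symbol Kdm3a), whose product JMJD1A removes methyl groups from lysine 9 of histone H3 and needs iron to do so. The other three groups, LacZ, WT and Mut, all carried the Jmjd1a hairpin and a further pMXs retrovirus for a LacZ reporter, for hairpin-resistant JMJD1A, or for hairpin-resistant JMJD1A with the iron-site change H1122A. The lines were stable, drug-selected infections, and the sources used here do not say whether replicates came from separate infections or cultures, so the p-values measure the spread between these libraries, which may be technical.

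An elastic fibre has a core of elastin laid down on fibrillin microfibrils, with fibulins and EMILINs helping it to assemble and lysyl oxidases joining the chains. Proteoglycans are proteins that carry long sugar chains: the small leucine-rich ones bind collagen fibrils, versican binds hyaluronan, and syndecans and glypicans sit at the cell surface. Matricellular proteins such as tenascins and thrombospondins tune how cells hold on to the matrix. As preadipocytes become fat cells they are known to replace a fibronectin-rich, fibroblast-like matrix with a basement membrane of laminin and nidogen.

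The hairpin and the rescue constructs were visible in the counts of Kdm3a. On the scale of read counts scaled to library size (CPM) with library sizes normalised within each set, Kdm3a was at 171, 174 and 185 in sh-Empty and at 129, 128 and 138 in sh-Jmjd1a, a log2 fold change of -0.42 (SE 0.05). It was at 122, 116 and 118 CPM in LacZ, at 1768, 1639 and 1662 in WT, and at 2288, 2199 and 2103 in Mut, where reads from the constructs were counted with those of the cells' own gene. Libraries held between 11437058 and 25523148 counts (median 12916162, the highest being WT replicate 3), and the 55 genes took 3.28% to 3.36% of them in sh-Empty, 3.92% to 4.08% in sh-Jmjd1a, 4.17% to 4.42% in LacZ, 4.15% to 4.27% in WT and 4.21% to 4.45% in Mut. Fn1, Vcan and Bgn alone made up 60.8% to 64.7% of these counts. The sum of 10 adipocyte markers lay between 5152 and 5235 CPM in sh-Empty, 2636 and 2774 in sh-Jmjd1a, 3344 and 3427 in LacZ, 3825 and 4194 in WT, and 2602 and 2701 in Mut. The mean CPM of 9 of the 10 was below that of the control in sh-Jmjd1a, and Lep, the other, was at or near 0 throughout. Lpl made up most of this sum. The sum of 10 fibroblast and preadipocyte markers moved the other way between the first pair of groups, from 8116 to 8346 CPM in sh-Empty to 12923 to 13706 in sh-Jmjd1a, and was 14965 to 15249 in LacZ, 14483 to 15008 in WT and 16038 to 16909 in Mut. Col1a1 and Col1a2 carried most of the rise, 7 of the 10 being higher in sh-Jmjd1a and Dlk1, Ly6a and S100a4 lower. In such bulk libraries, fewer cells of a type and less RNA per cell cannot be told apart, and the part of the differentiation state in the changes below was not tested. The sum of 7 chondrocyte markers was 196 to 202 CPM in sh-Empty and 235 to 318 in the other groups. Sox9 and Col11a2 made up most of it, with Col9a1 and Matn1 at 0 and Col2a1 and Matn3 at or near 0. For 7 muscle markers the sum was 35.2 to 40.2 CPM in sh-Empty and 53.7 to 69.1 in the other groups. Most of it was Smtn, at means of 33.2 CPM in sh-Empty and 50.8 in sh-Jmjd1a. Of the 7 muscle markers, 2 had a higher mean in sh-Jmjd1a than in sh-Empty, 3 a lower one and 2 the same. Other markers were low: 7 endothelial markers summed to at most 1.04 CPM, 7 macrophage and leukocyte markers to at most 5.56, 6 epithelial markers to at most 2.69, and the muscle genes Myod1 and Myog were at 0.

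Per unit of transcript length, fibronectin and biglycan had the highest levels among these 55 genes, which hold no collagen. Levels between genes are compared as CPM divided by exon length in kilobases (RPKM), as means over all 15 libraries: Fn1, the fibronectin gene, was at 1404 and Bgn, a small leucine-rich proteoglycan, at 1345. They were followed by Vcan, which encodes versican, at 623, the collagen-binding Sparc at 516, Fbln2 at 339, Aspn at 294, the calcification inhibitor Mgp at 223, Nid1 at 176 and Sdc1 at 159. The transcript of elastin, the core of the elastic fibre, was scarce: Eln was at 0.186 RPKM with 0 to 30 counts in a library, while the crosslinking genes Lox and Loxl1 stood at 137 and 131 and the fibrillin gene Fbn1 at 22.4. Fbn2, Efemp1, Fmod, Acan, Gpc3 and Has1 did not pass the filter on low counts in either set, with at most 2, 3, 13, 1, 3 and 16 counts in any library, and Eln and Mfap5 did not pass it in the knockdown set. The genes tested were thus 47 of the 55 among the sh-Empty and sh-Jmjd1a libraries (the knockdown set) and 49 among the LacZ, WT and Mut libraries (the rescue set).

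**Figure D1:**
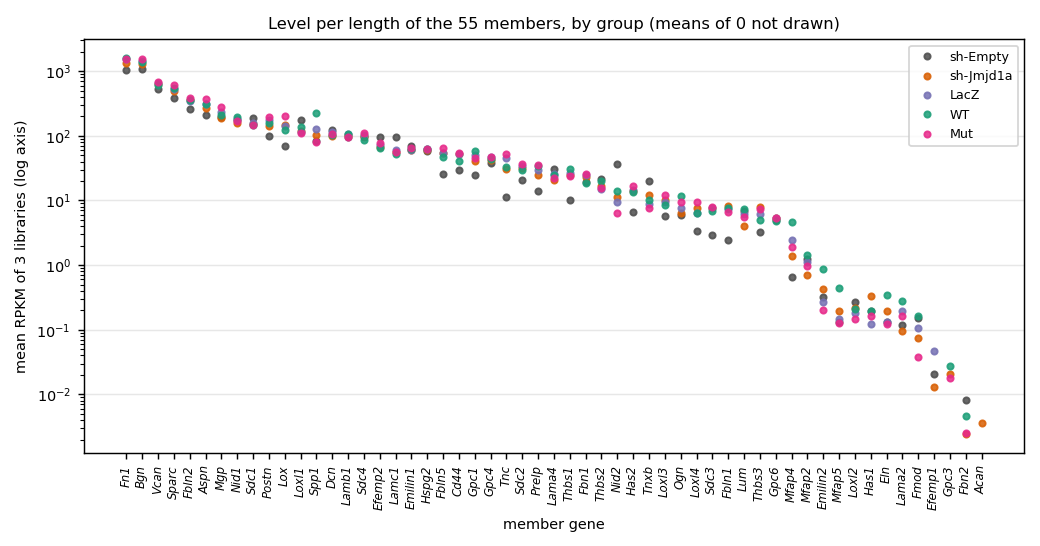
Mean RPKM of 3 libraries per group (log axis) for each of the 55 genes, ordered by the mean over all libraries, with 1 colour per group and means of 0 left out. Fn1 (1404 RPKM over all libraries) and Bgn (1345) lead, Eln (0.186) lies near the low end, and for genes such as Nid2 and Tnc the group means lie visibly apart.

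Promoter sequences are printed for 4 of the genes, as examples of 3 of the patterns of response described further on: Tnc and Fbln5 were higher after the knockdown and lower again with JMJD1A, Thbs2 was lower and then higher, and Spp1 was higher in both. Each sequence is the 250 bases before the first start that RefSeq lists (build GRCm38.p6, unlike the mm9 gene positions given elsewhere; Tnc, Fbln5 and Spp1 have 2 starts listed), read 5′ to 3′ on the strand of the gene, and 35 of the 55 genes were found in that table. Capitals mark matches on either strand to TATAAA (the motif of the TATA-binding protein), to GGGCGG (bound by Sp1) and to GCCAAT (bound by NF-Y). The motifs TGANTCA of AP-1, GGAATG of TEAD factors and TTGCNNAA of C/EBP factors and the CArG box of the serum response factor were searched as well and had no match in these 4 windows.
Tnc (chr4:64047016-64047265, minus strand): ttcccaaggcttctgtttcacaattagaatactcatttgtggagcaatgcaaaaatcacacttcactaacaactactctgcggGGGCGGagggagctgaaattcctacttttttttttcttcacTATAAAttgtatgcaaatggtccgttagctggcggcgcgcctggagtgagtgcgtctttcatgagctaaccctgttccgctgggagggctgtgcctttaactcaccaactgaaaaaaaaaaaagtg
Fbln5 (chr12:101819120-101819369, minus strand): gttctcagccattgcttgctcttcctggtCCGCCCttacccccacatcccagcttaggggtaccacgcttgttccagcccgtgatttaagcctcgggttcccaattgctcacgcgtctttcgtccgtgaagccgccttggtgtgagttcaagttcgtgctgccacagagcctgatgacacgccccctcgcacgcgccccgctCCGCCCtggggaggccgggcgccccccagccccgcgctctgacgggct
Thbs2 (chr17:14694263-14694512, minus strand): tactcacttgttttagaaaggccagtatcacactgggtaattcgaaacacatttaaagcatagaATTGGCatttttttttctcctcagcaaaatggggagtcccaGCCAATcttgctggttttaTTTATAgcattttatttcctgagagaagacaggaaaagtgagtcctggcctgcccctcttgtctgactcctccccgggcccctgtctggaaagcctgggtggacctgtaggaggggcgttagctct
Spp1 (chr5:104434861-104435110, plus strand): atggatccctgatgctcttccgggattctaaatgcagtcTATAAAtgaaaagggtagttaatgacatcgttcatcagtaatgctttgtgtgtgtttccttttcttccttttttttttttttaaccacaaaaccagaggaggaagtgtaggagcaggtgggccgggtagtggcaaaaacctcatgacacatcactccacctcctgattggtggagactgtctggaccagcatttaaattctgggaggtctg
Tnc and Fbln5, which moved together, share only GGGCGG among the motifs searched, and Thbs2 alone of the 4 has GCCAAT, 2 times. Over 27025 promoters of the same length (1 per gene), TATAAA is found in 13%, GGGCGG in 32.9%, GCCAAT in 14%, the AP-1 motif in 6.87%, the TEAD motif in 12.6%, the C/EBP motif in 9.55% and the CArG box in 1.4%. The motifs searched do not overlap each other in these 4 sequences. Among the 35 matrix promoters the numbers with a match were 5, 20, 4, 2, 4, 4 and 1, in the same order. These are matches of letters only.

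The first comparison, sh-Jmjd1a against sh-Empty, asked what the knockdown changed on day 2. It was partial at the RNA level, with Kdm3a at a mean of 177 CPM in sh-Empty and 132 in sh-Jmjd1a. These libraries do not measure the protein. Most of the matrix genes moved, and more of them up than down: 25 of the 47 tested rose, 12 fell and 10 were not called at an adjusted p under 0.05 (edgeR quasi-likelihood test, adjusted over 12272 genes). Over all genes tested, 22.3% rose and 23.9% fell. The median log2 fold change of the 47 was 0.24, against -0.0032 for all genes. The median absolute log2 fold change was 0.50 for the 47 and 0.22 for all genes. The genes that rose included Fbln1, Tnc, Sdc3, Thbs1, Thbs3, Loxl4, Lox, Fbln5 and Has2, each with a log2 fold change of at least 1, and Nid2 was the only one that fell as far.

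**Figure D2:**
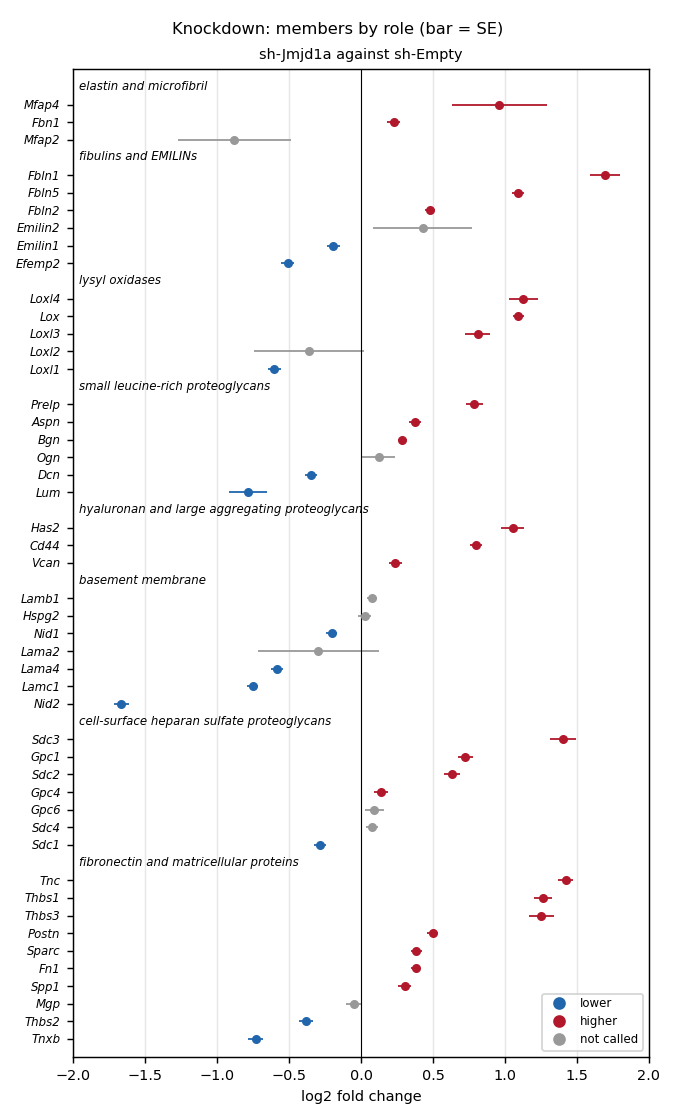
log2 fold change of sh-Jmjd1a against sh-Empty (x axis, bars are the standard error of the fit, 3 libraries a group) for the 47 genes tested, grouped by role and coloured by the call at an adjusted p under 0.05. The 4 called basement membrane genes all lie left of 0, down to Nid2 at -1.66, and the matricellular genes lie mostly to the right, up to Tnc at 1.42.

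Of the elastin and microfibril genes, 2 of the 3 tested rose. Fbn1 (chr2:125126330-125333729 of mm9, minus strand), the main fibrillin, was at 246, 236 and 235 CPM in sh-Empty and at 268, 277 and 293 in sh-Jmjd1a. The groups did not overlap, and the rise was small at a log2 fold change of 0.23 (SE 0.04). Mfap4, a microfibril-associated glycoprotein, was much scarcer, at 0.617, 1.38 and 1.88 CPM in sh-Empty and 2.88, 2.74 and 2.33 in sh-Jmjd1a (log2 fold change 0.96, SE 0.33). Leaving out sh-Empty replicate 1, or else sh-Jmjd1a replicate 1, ended this call, with log2 fold changes between 0.67 and 1.39 when each library was left out. Mfap2 was at a log2 fold change of -0.88 (SE 0.39) and was not called.

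The fibulins and EMILINs divided by gene. Fbln1 (chr15:85036379-85116965, plus strand), which encodes the calcium-binding matrix protein fibulin-1, had the largest rise of all 47: it was at 10.6, 12.3 and 10.1 CPM in sh-Empty and at 38.0, 35.1 and 33.2 in sh-Jmjd1a, 3.24-fold higher (log2 fold change 1.69, SE 0.10). Fbln5 (chr12:102984775-103057265, minus strand), needed for elastic fibre assembly, was at 152, 149 and 151 CPM against 320.0, 317 and 323, a 2.13-fold rise (edgeR adjusted p = 2.06e-18). In both genes every knockdown library lay above every control library by far more than the spread within either group. Fbln2 rose 1.4-fold. In contrast, Efemp2, the fibulin-4 gene, which brings lysyl oxidase to elastin, fell 1.43-fold, and Emilin1 fell 1.14-fold. Emilin2, at 1.34 CPM in sh-Empty and 1.81 in sh-Jmjd1a on average, was not called.

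Lysyl oxidases, which oxidise lysines of collagen and elastin so that they crosslink, changed places. Lox (chr18:52675723-52689521, minus strand) was at 325, 325 and 339 CPM in sh-Empty and at 721, 709 and 683 in sh-Jmjd1a, 2.13-fold higher (edgeR adjusted p = 4.56e-19). Loxl4 (chr19:42668472-42687303, minus strand) was at 14.1, 14.998 and 14.8 CPM against 35.1, 33.0 and 28.1, 2.18-fold higher, and Loxl3 rose 1.75-fold. Loxl1 went the other way, from a mean of 595 CPM (SD 14.1, n = 3) to 392 (SD 23.4, n = 3), a 1.52-fold fall. Per length, Loxl1 made up 68.6% to 70.0% of the summed RPKM of the 5 lysyl oxidase genes in sh-Empty and 40.3% to 41.6% in sh-Jmjd1a, and Lox 26.7% to 27.5% and then 51.9% to 53.5%. The sum itself moved far less, from 255 RPKM (SD 4.83, n = 3) to 284 (SD 12.3, n = 3). The leading gene of the family thus changed, and its total differed by less than either of the pair.

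Among the small leucine-rich proteoglycans, 3 rose and 2 fell of 6 tested. Prelp, which anchors basement membranes to collagen, was at 52.5, 49.5 and 54.3 CPM in sh-Empty and at 86.4, 93.2 and 90.4 in sh-Jmjd1a (1.72-fold higher, edgeR adjusted p = 1.09e-11). Aspn rose 1.3-fold and the abundant Bgn 1.22-fold. Lum and Dcn, which encode the collagen fibril regulators lumican and decorin, fell 1.73-fold and 1.27-fold. Dcn and Bgn are close relatives, and they moved in opposite directions. Ogn was not called.

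The 3 tested genes of hyaluronan and its partners all rose. Has2 (chr15:56497182-56526094, minus strand), a hyaluronan synthase, was at 24.8, 32.3 and 27.9 CPM in sh-Empty and at 57.6, 60.5 and 58.4 in sh-Jmjd1a, 2.08-fold higher. Cd44 (chr2:102651298-102741822, minus strand), the hyaluronan receptor, was at 208, 207 and 206 CPM against 359, 368 and 353, 1.74-fold higher (edgeR adjusted p = 1.16e-15). The synthase and the receptor both left the range of their controls. Vcan rose 1.18-fold from its high level.

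Of the 7 cell-surface heparan sulfate proteoglycans tested, 4 rose and 1 fell. Sdc3 (chr4:130348452-130382234, plus strand) was at 18.4, 18.3 and 15.9 CPM in sh-Empty and at 47.1, 49.4 and 41.7 in sh-Jmjd1a, 2.65-fold higher (edgeR adjusted p = 2.68e-13). Gpc1 rose 1.65-fold and Sdc2 1.55-fold. Gpc4 rose 1.1-fold, a call that did not hold when sh-Empty replicate 2 or 3 or the second sh-Jmjd1a library was left out, with log2 fold changes of 0.12 to 0.16 over the libraries left out. Sdc1, the most abundant syndecan, fell 1.22-fold, from 60.5% to 61.6% of the syndecans' summed RPKM to 50.8% to 53.0%. Sdc4 and Gpc6 were not called.

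The basement membrane genes were the one role group whose calls all pointed down: 4 of 7 fell and 0 rose by the edgeR test. The number that rose was also 0 at an unadjusted p under 0.05 and by DESeq2. Nid2 (chr14:20570479-20631009, plus strand), which encodes nidogen-2, a link between laminin and type IV collagen, was at 181, 182 and 173 CPM in sh-Empty and at 59.7, 52.9 and 56.4 in sh-Jmjd1a. This 3.17-fold fall (log2 fold change -1.66, SE 0.05, edgeR adjusted p = 6.93e-20) was the largest fall and had the smallest adjusted p among the 47 genes. Its paralog Nid1 fell only 1.15-fold, so that the Nid2 share of the summed nidogen RPKM went from 16.8% to 16.9% in sh-Empty to 6.45% to 7.26% in sh-Jmjd1a. The laminin chains Lamc1 and Lama4 fell 1.69-fold and 1.5-fold, while Lamb1 (log2 fold change 0.07, SE 0.04) and the perlecan gene Hspg2 (0.02, SE 0.04) were not called. Lama2, at about 1 CPM, was not called either.

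Fibronectin and the matricellular genes gave 7 rises and 2 falls among 10. Tnc (chr4:63620819-63681760, minus strand), which encodes the anti-adhesive tenascin-C, was at 85.5, 86.1 and 87.3 CPM in sh-Empty and at 245, 214 and 237 in sh-Jmjd1a, 2.68-fold higher (edgeR adjusted p = 6.84e-19). Thbs1 (chr2:117937612-117952869, plus strand), an activator of latent TGF-beta, was at 61.8, 62.7 and 64.9 CPM against 168, 147 and 141, 2.4-fold higher. Thbs3 (chr3:89019102-89030759, plus strand) was at 15.7, 15.1 and 17.4 CPM against 37.9, 39.6 and 38.2, 2.38-fold higher. In all 3 genes the lowest knockdown library was well above the highest control. Thbs2 and Tnxb instead fell, 1.3-fold and 1.66-fold, so that both the thrombospondins and the tenascins held genes moving each way. Among the thrombospondins, Thbs2 led in sh-Empty with 60.5% to 62.3% of the summed RPKM and Thbs1 led in sh-Jmjd1a with 48.5% to 53.3%. Postn, Sparc and Fn1 rose 1.41-fold, 1.3-fold and 1.3-fold, and Spp1, the osteopontin gene, rose 1.23-fold from 135, 139.8 and 142 CPM to 177, 169.5 and 167. Mgp was not called.

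The second comparison, WT against LacZ, asked what enforced expression of hairpin-resistant JMJD1A changed in the knockdown cells. Fewer genes moved and by less: of 49 tested, 11 fell, 11 rose and 27 were not called. Over all 12557 genes tested, 4.52% fell and 4.98% rose. The median log2 fold change was 0.0016 for the 49 and -0.00014 for all genes, and the median absolute log2 fold change was 0.19 and 0.092. The third comparison, Mut against WT, set the iron-site mutant against the intact protein, and more genes differed: 16 fell, 19 rose and 14 were not called, where 11.7% and 12.1% of all genes fell and rose. The median absolute log2 fold change was 0.32 for the 49 and 0.14 for all genes. These comparisons share the 3 WT libraries, so their values are set side by side and not counted as separate evidence. Kdm3a, construct reads included, was at a mean of 119 CPM in LacZ, 1690 in WT and 2197 in Mut. WT was thus far above the 177 CPM of sh-Empty, and Mut was above WT. The part of these levels in the differences was not tested.

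**Figure D3:**
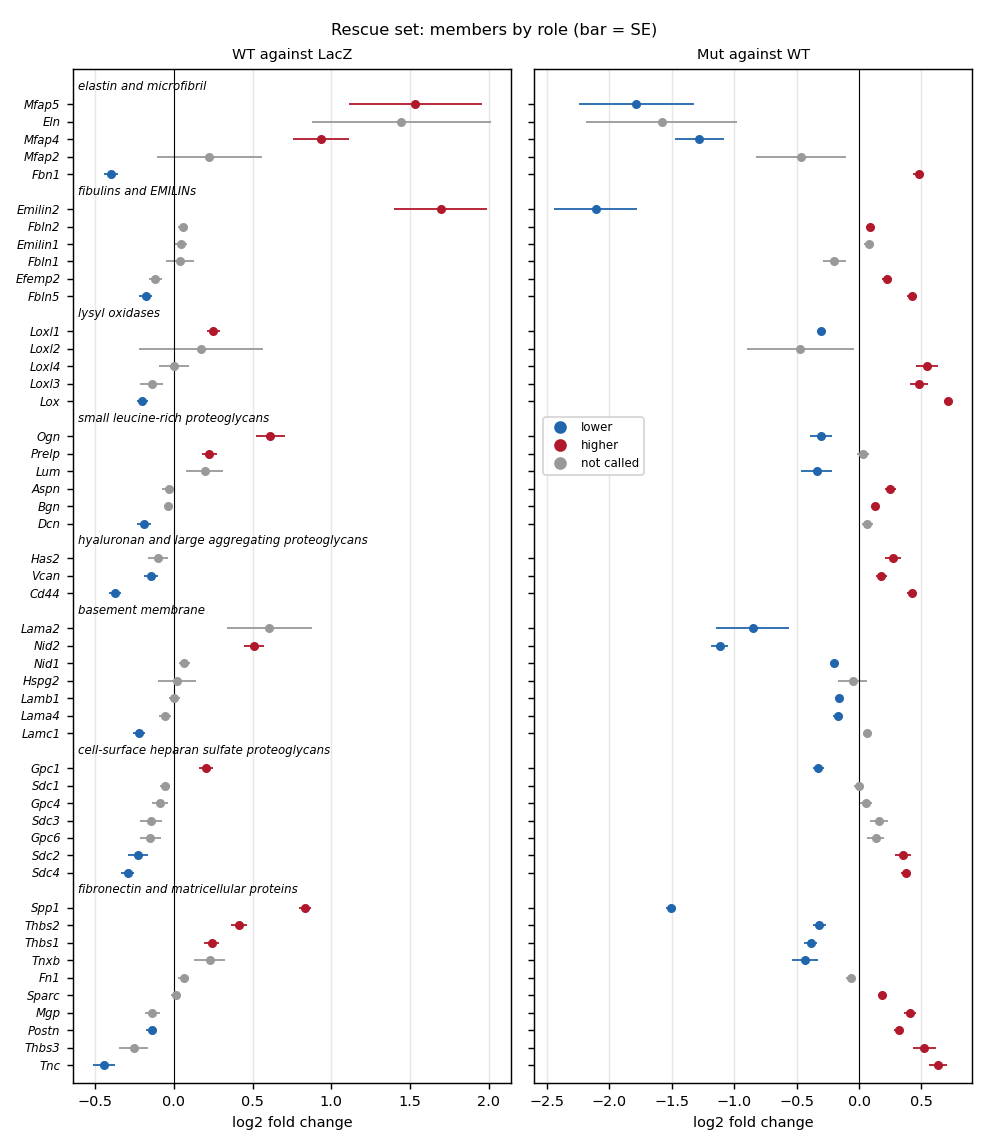
log2 fold change (x axis, bars are the standard error of the fit, 3 libraries a group) for WT against LacZ (left) and Mut against WT (right) in the 49 genes tested, grouped by role and coloured by call. The WT libraries enter both panels. Spp1 is at 0.83 on the left and -1.51 on the right, and Lox at -0.20 and 0.71.

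Spp1 (chr5:104864137-104870069, plus strand), whose product osteopontin binds integrins and CD44, was the matrix gene with the smallest adjusted p in the rescue set. It was at 203, 202 and 214 CPM in LacZ, at 373, 373 and 357 in WT, and at 132, 128 and 127 in Mut. The 3 groups did not overlap, and the Mut libraries lay not only below WT but also below LacZ. WT was 1.78-fold higher than LacZ (edgeR adjusted p = 8.01e-21) and Mut 2.84-fold lower than WT (edgeR adjusted p = 5.73e-30). Spp1 is also an osteoblast and macrophage gene. The sum of 7 osteoblast markers was 69.0 to 69.7 CPM in WT, 50.6 to 52.7 in LacZ and 41.7 to 44.6 in Mut. Phex carried most of these differences, at means of 11.6 CPM in LacZ, 29.8 in WT and 7.66 in Mut. Runx2 was at 33.8, 31.1 and 31.3 CPM in the same order, and Sp7 and Bglap were near 0. Of the 7 markers, 4 had a higher mean in WT than in LacZ and 3 a lower one. The part of these markers in the Spp1 change was not tested. The 7 macrophage and leukocyte markers summed to 2.27 to 3.95 CPM in LacZ, 4.05 to 5.35 in WT and 4.81 to 5.45 in Mut. This low sum was higher in WT than in LacZ but not lower in Mut than in WT. Only 2 of the 7 passed the filter on low counts, and 0 were called in WT against LacZ or in Mut against WT. Their part in the Spp1 change was not tested.

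Basement membrane and elastic fibre genes gave the other large differences. Nid2 was at 46.8, 44.5 and 49.3 CPM in LacZ, at 64.7, 73.0 and 63.7 in WT and at 30.7, 31.0 and 30.5 in Mut, so that it rose 1.42-fold with WT and was 2.17-fold lower in Mut than in WT. Every WT library was above every LacZ library, and every Mut library was below both. Of the 7 basement membrane genes, 1 rose (Nid2) and 1 fell (Lamc1, 1.16-fold) in WT against LacZ, and 5 fell in Mut against WT: Nid2, Nid1, Lama4, Lamb1 and the scarce Lama2. By DESeq2 the number was 4. Mfap4 (chr11:61298933-61302402, plus strand) was at 3.67, 4.74 and 5.45 CPM in LacZ, 10.4, 8.99 and 7.78 in WT, and 4.54, 3.72 and 2.48 in Mut. WT stood above both other groups, which overlapped each other. Emilin2 and Mfap5 had larger log2 fold changes, 1.69 (SE 0.30) and 1.53 (SE 0.42) in WT against LacZ and -2.11 (SE 0.33) and -1.78 (SE 0.46) in Mut against WT, from means of 1.09 and 0.53 CPM in LacZ. The counts behind them were low, with at most 86 and 36 in any library, and the WT against LacZ call of Mfap5 was lost without LacZ replicate 3, with log2 fold changes of 1.24 to 1.78 over the libraries left out. Eln was at 0.901 CPM in WT and 0.31 in Mut on average (log2 fold change -1.58, SE 0.61) and was not called. Fbn1 was at 316, 295 and 282 CPM in LacZ, 225, 221 and 230.2 in WT, and 334, 319 and 289 in Mut, and thus was lower in WT than in either of the others.

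**Figure D4:**
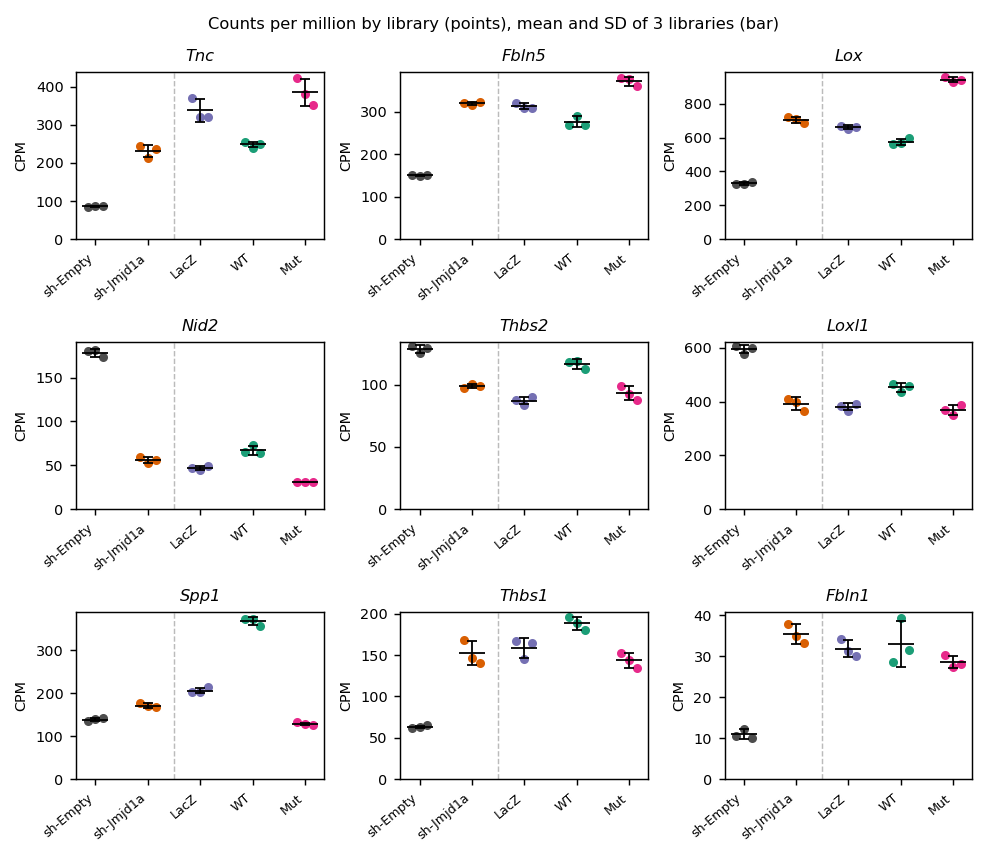
CPM by library (points), with the mean and SD of 3 libraries, for 9 genes in the 5 groups, knockdown set left of the dashed line and rescue set right of it, with each set normalised apart and each axis starting at 0. Tnc, Fbln5 and Lox are high after the knockdown and lowest of the rescue set in WT, Nid2, Thbs2 and Loxl1 show the opposite order, and Spp1 peaks in WT at 357 to 373 CPM.

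Lox and Fbln5, which rose in the knockdown, fell with WT and were higher in Mut than in WT or LacZ. Lox was at 669.8, 647 and 663 CPM in LacZ, 561, 565 and 594 in WT, and 955, 928 and 942 in Mut. It fell 1.15-fold with WT and was 1.64-fold higher in Mut than in WT (edgeR adjusted p = 2.61e-21). Loxl1 moved the other way again, rising 1.19-fold with WT and falling 1.23-fold in Mut, and it led the family's summed RPKM in WT with 48.9% to 51.1%, against 41.4% to 42.9% in LacZ and 32.4% to 34.2% in Mut. The family sum was 272, 274 and 335 RPKM in LacZ, WT and Mut (SD 4.97, 6.55 and 8.52, n = 3 each). Loxl4 was at 27.7, 29.9 and 23.7 CPM in LacZ, 23.7, 25.5 and 30.2 in WT, and 40.6, 35.9 and 42.2 in Mut. LacZ and WT overlapped, and Mut stood above both. Fbln5 was at 321, 310.3 and 308 CPM in LacZ, 269.7, 291 and 270.1 in WT and 379.7, 377 and 360.2 in Mut, with no overlap between the 3 groups. Fbln1, the gene with the largest rise in the knockdown, was at 34.3, 31.3 and 30.2 CPM in LacZ, 28.5, 39.4 and 31.5 in WT and 30.3, 27.4 and 28.1 in Mut and was called in neither comparison (log2 fold change of WT against LacZ 0.04, SE 0.09).

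Among hyaluronan, proteoglycan and matricellular genes, Cd44, Sdc4 and Tnc were lower in WT than in both other groups, and Ogn and Thbs1 were higher. Cd44 was at 355, 364 and 365 CPM in LacZ, 270.2, 278 and 287 in WT and 375, 388 and 359 in Mut, lower in WT than in either. Has2 was at 63.6, 59.8 and 61.3 CPM in LacZ, 54.8, 53.8 and 61.6 in WT and 65.4, 73.9 and 68.5 in Mut, where only the difference of Mut and WT was called (1.21-fold). Sdc4 (chr2:164249747-164269387, minus strand), a syndecan of focal adhesions, was at 260.4, 259 and 277 CPM in LacZ, 218, 213 and 218 in WT and 286, 275 and 285 in Mut. It had not been called in the knockdown (245, 242 and 247 against 251, 263 and 261 CPM). Ogn (chr13:49703440-49719869, plus strand), the osteoglycin gene, was likewise not called in the knockdown (16.8, 14.7 and 14.05 against 18.1, 16.5 and 14.8 CPM) and rose 1.53-fold with WT: it was at 17.8, 21.6 and 18.5 CPM in LacZ, 27.9, 32.5 and 28.6 in WT and 24.2, 23.7 and 23.8 in Mut. Prelp was at 101, 106 and 110.4 CPM in LacZ, 127, 119 and 125 in WT and 135, 123 and 123 in Mut, so that it rose with WT and was not called between WT and Mut (log2 fold change 0.03, SE 0.05). Sdc3 was at 47.1, 46.3 and 44.3 CPM in LacZ, 43.4, 37.4 and 42.8 in WT, and 48.7, 47.2 and 43.01 in Mut, and was called in neither comparison. Of the matricellular genes, Tnc was at 371, 320.0 and 322 CPM in LacZ, 256, 240.4 and 249 in WT and 422, 382 and 352 in Mut. WT lay below all LacZ and Mut libraries, 1.36-fold below LacZ on the fitted scale. Thbs1 was at 167, 145 and 165 CPM in LacZ, 195, 188 and 181 in WT and 152, 144 and 135 in Mut, highest in WT. Thbs3 was at 32.0, 25.3 and 30.5 CPM in LacZ, 22.0, 23.5 and 26.7 in WT and 34.4, 32.4 and 39.3 in Mut, with a call in Mut against WT alone (1.44-fold higher). Thbs2 (chr17:14802507-14831269, minus strand), an inhibitor of new vessel growth, was at 88.1, 84.1 and 89.8 CPM in LacZ, 119, 119 and 112 in WT and 99.1, 92.7 and 87.8 in Mut. Every WT library was above those of the other groups, which overlapped, and Thbs2 rose 1.33-fold with WT and was 1.25-fold lower in Mut than in WT.

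Some of these calls were lost when 1 library was left out. In WT against LacZ, 17 of the 22 calls held when each library was left out in turn. Vcan (log2 fold changes -0.18 to -0.10 over the libraries left out) lost its call without LacZ replicate 1 or WT replicate 2, Dcn (-0.22 to -0.15) and Postn (-0.18 to -0.10) without WT replicate 3, and Sdc2 (-0.29 to -0.18) without LacZ replicate 2 or 3 or WT replicate 1 or 3. The LacZ and WT libraries overlapped for Sdc2. In Mut against WT, 30 of 35 held. Fbln2 (0.07 to 0.11) lost its call without LacZ replicate 3, Mut replicate 1 or 2, or WT replicate 2 or 3, Lum (-0.45 to -0.27) without any Mut replicate or WT replicate 1 or 2, Lama2 (-0.99 to -0.57) without Mut replicate 2 or 3 or WT replicate 3, Tnxb (-0.52 to -0.37) without Mut replicate 2 or 3, and Ogn (-0.33 to -0.25) without WT replicate 2. In the knockdown, 35 of 37 calls held.

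The knockdown and the WT against LacZ comparison share no library, and 18 of the 47 genes tested in both were called in both. Of these, 11 moved in opposite directions: Fbn1, Fbln5, Lox, Vcan, Sdc2, Cd44, Tnc and Postn were higher with the hairpin and lower with WT, and Loxl1, Thbs2 and Nid2 were lower and then higher. The other 7 moved the same way in both. Mfap4, Gpc1, Thbs1, Spp1 and Prelp were higher with the hairpin and higher again with WT, and Dcn and Lamc1 were lower in both. The share in opposite directions was 61.1% of the 18 genes, and 74.9% of the 844 called in both among all 12202 genes. The sizes were unequal: Tnc had a log2 fold change of 1.42 (SE 0.05) in the knockdown and -0.44 (SE 0.07) with WT, and Nid2 -1.66 (SE 0.05) and 0.51 (SE 0.06).

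**Figure D5:**
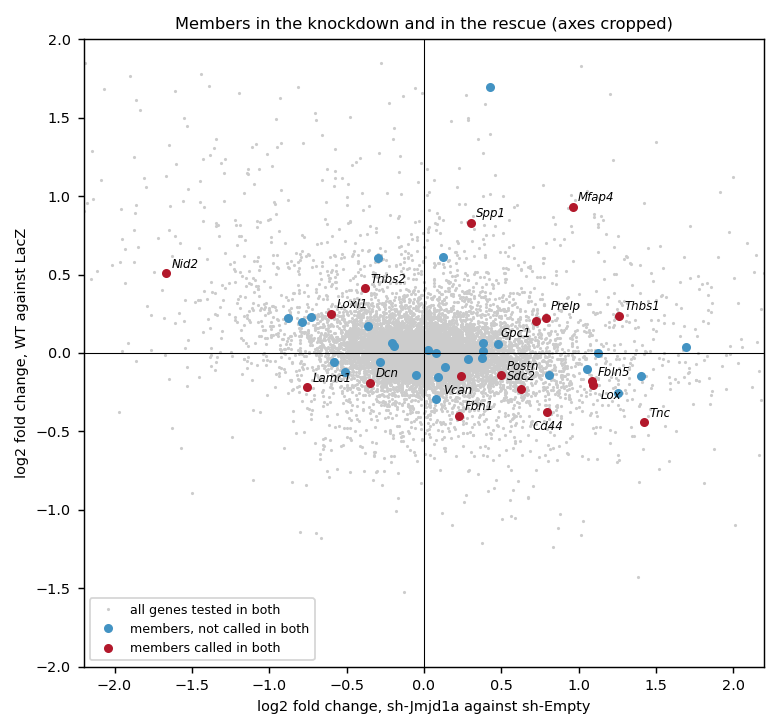
log2 fold change of sh-Jmjd1a against sh-Empty (x axis) and of WT against LacZ (y axis) for the matrix genes over all genes tested in both (grey, axes cropped). The 18 genes called in both are named: 11 lie at the upper left and lower right, and 7, among them Spp1 and Thbs1, at the upper right and lower left.

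In Mut against WT, which shares the WT libraries with WT against LacZ, the genes of these groups had values of their own. The log2 fold changes of Mut against WT were 0.48 for Fbn1, 0.43 for Fbln5, 0.71 for Lox, 0.18 for Vcan, 0.35 for Sdc2, 0.42 for Cd44, 0.63 for Tnc and 0.32 for Postn, and -0.30 for Loxl1, -0.32 for Thbs2 and -1.12 for Nid2. Among those that had moved the same way, Mfap4 (-1.28), Gpc1 (-0.33), Thbs1 (-0.39) and Spp1 (-1.51) were lower in Mut, and Prelp (0.03), Dcn (0.06) and Lamc1 (0.07) were not called. Fbln2, Loxl3, Loxl4, Bgn, Aspn, Has2, Sparc and Thbs3 rose in the knockdown and were higher in Mut than in WT, without a call in WT against LacZ. Lum, Tnxb, Nid1 and Lama4 fell in the knockdown and were lower in Mut than in WT, also without such a call. The study lists Tnxb, and also Thbs2, among its putative JMJD1A targets, drawn from RNA and H3K9me2 data. Those targets had to be higher in WT than in LacZ. Its own test thus called Tnxb there, where the test used here did not.

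Other genes were called in fewer comparisons. Fbln1, Sdc3, Gpc4 and Fn1 rose, and Emilin1 and Sdc1 fell, in the knockdown and were called in neither WT against LacZ nor Mut against WT. Efemp2 fell in the knockdown (log2 fold change -0.51) and was higher in Mut than in WT (0.22). Mgp, a vitamin K-dependent inhibitor of calcification, was 1.33-fold higher in Mut than in WT, and Lamb1, a laminin chain, 1.12-fold lower, and neither was called in the knockdown or with WT. Mfap2, Loxl2, Hspg2 and Gpc6 were tested and called in none of these 3 comparisons, and Eln was tested in the rescue set without a call. Mfap2, a microfibril glycoprotein at a mean of 1.09 RPKM, had log2 fold changes of -0.88 (SE 0.39), 0.22 (SE 0.33) and -0.47 (SE 0.36).

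Mut was also set against LacZ, the construct with the iron-site change against the reporter. Here 12 of the 49 genes were higher, 6 were lower and 31 were not called, where 4.78% of all genes were higher and 4.46% lower. Lox and Loxl4 were 1.43-fold and 1.46-fold higher and Loxl3 1.27-fold higher in Mut, and Spp1 and Nid2 were 1.6-fold and 1.52-fold lower. Fbln5, Fbln2, Sparc, Postn, Mgp, Aspn and Prelp were higher by 1.11-fold to 1.21-fold. The remaining 2 higher genes, Emilin1 and Ogn, lost their calls without LacZ replicate 3, Mut replicate 1 or Mut replicate 3 among others, with log2 fold changes of 0.10 to 0.15 and 0.25 to 0.40 over the libraries left out. Nid1, Lama4, Lamb1 and Lamc1 made up the other genes that were lower, so that 5 of the 6 were of the basement membrane. Nid1 (-0.16 to -0.09) lost its call without LacZ replicate 1 or Mut replicate 3, and Lamc1 (-0.18 to -0.11) without LacZ replicate 1.

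Both LacZ and sh-Jmjd1a carry the hairpin, and they differ in the reporter virus. The sources used here do not say whether their libraries were prepared together, and a batch and the virus cannot be told apart. In a fit of all 15 libraries, 15 of the 49 matrix genes were higher and 4 lower in LacZ, where 3.62% and 3.36% of all 12758 genes were. Tnc (1.47-fold), Lama4 (1.27-fold), Postn (1.22-fold) and Spp1 (1.22-fold) were among those higher, as were 5 of the 6 small leucine-rich proteoglycans tested. Tnxb, Thbs3, Nid2 and Thbs2 were lower. Of these 19 calls, 13 held when each library was left out, and all 4 of the lower ones were lost without LacZ replicate 2. Thbs2 (log2 fold changes -0.19 to -0.14) lost its call without any of the 6 libraries of these groups, Mfap4 (0.68 to 0.96) without any of them but LacZ replicate 1, Lamc1 (0.08 to 0.15) without sh-Jmjd1a replicate 1 or 2 or LacZ replicate 1 or 3, Tnxb (-0.54 to -0.37) without sh-Jmjd1a replicate 3 or LacZ replicate 2 or 3, Nid2 (-0.29 to -0.21) without sh-Jmjd1a replicate 1 or LacZ replicate 2, and Thbs3 (-0.45 to -0.29) without LacZ replicate 2. CPM values of the rescue set and the knockdown set are therefore read within each set.

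Lists of related genes give counts of calls among other matrix genes. Over all genes tested, 22.3% rose and 23.9% fell in the knockdown. The shares were 4.98% and 4.52% in WT against LacZ, and 12.1% and 11.7% in Mut against WT. Whether any list differs from these shares was not tested. The genes named are those with the largest called change at a mean of 5 CPM or more. Some scarcer genes changed further. In the knockdown, 5 of 10 tested latent TGF-beta binding and other elastic fibre genes rose and 3 fell, with Ltbp2 at 812 CPM in sh-Empty and 402 in sh-Jmjd1a (log2 fold change -1.02, SE 0.05). Of 18 further proteoglycan and hyaluronan genes, 3 rose, among them the lubricin gene Prg4, from 92.7 to 209.8 CPM (log2 fold change 1.18), and 7 fell, among them the hyaluronidase gene Hyal2 (-0.49). Of 33 genes that build and edit the sugar chains, 13 rose and 9 fell, with Csgalnact1 at 1.34 and Hs6st1 at -0.80. Of 15 other matricellular genes, 8 rose, among them Ccn4, from 8.5 to 27.6 CPM (1.71), and 5 fell, among them Sparcl1 (-0.82). Of 6 other basement membrane genes, 1 rose (Lamb2, 0.27) and 3 fell, among them Smoc1 (-0.78), and of 21 integrins and other matrix receptors, 11 rose and 4 fell, with Itgb3 at 1.01 and Cd36 at -0.61. In WT against LacZ, 3 of 11 elastic fibre genes fell, among them Ltbp4 (-0.62), and 0 rose. Of 33 sugar chain genes 6 fell, among them Papss2, which makes the sulfate donor (-0.40), and 0 rose. Of 21 receptors 7 fell, among them Antxr1 (-0.41), and 2 rose, among them Cd36 (0.48). Of the 18 proteoglycan and hyaluronan genes 1 rose (Prg4, 0.31) and 1 fell (Tgfbr3, -0.23). Of 17 matricellular genes 4 rose, among them Comp (0.71), and 4 fell, among them Tgfbi (-0.54). Of 7 basement membrane genes 3 rose, of which Tinagl1 (0.22) alone was at 5 CPM or more. In Mut against WT, 7 of 11 elastic fibre genes were higher, among them Ltbp1 (0.72), 10 of 33 sugar chain genes were higher and 5 lower, with Papss2 at 0.67, and 8 of 17 matricellular genes were higher and 2 lower, with Mfge8 at 0.62 and Ccn5 at -0.80. Of 7 basement membrane genes 1 was higher (Lamb2, 0.42) and 3 lower, each of the 3 at a mean below 5 CPM. Of 21 receptors 6 were higher and 3 lower, with Antxr1 at 0.82 and Cd36, also a fatty acid carrier of fat cells, at -1.54. Cd36 was at 66.5 CPM in LacZ, 93.4 in WT and 31.8 in Mut. Of the 18 proteoglycan and hyaluronan genes, 1 was higher in Mut than in WT (Tgfbr3, 0.24) and 1 lower (Prg4, -0.41).

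Exons of 11 of the 55 genes overlap a gene on the other strand in the mm9 annotation: Fbn1, Mfap4, Loxl3, Prelp, Sdc3, Has2, Fn1, Thbs3, Tnc, Tnxb and Nid2. The sources used here do not state whether the counting used strand, and without it reads of such pairs cannot be told apart.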

How the data were processed

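Poly(A) RNA-seq libraries of 3T3-L1 cells on day 2 (15 libraries) were used. Per the labels and methods, the authors trimmed reads with fastp, aligned them with HISAT2 to mm9 and counted them per gene with featureCounts. The deposited values are whole-number counts, neither normalised nor pooled. The strand setting is not given in the sources used here. Symbols were found for 24191 of 26301 rows in a RefSeq gene table (GRCm38.p6, used for names), and rows without a symbol held 0.5% of counts.

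Counts were tested with edgeR 4.0.16 (R 4.3.3): TMM sizes, filterByExpr with a minimum count of 10, a robust quasi-likelihood test, and Benjamini-Hochberg adjusted p under 0.05 over all genes. The knockdown set (sh-Empty, sh-Jmjd1a) and the rescue set (LacZ, WT, Mut) were fitted apart, and LacZ against sh-Jmjd1a in one fit of 15 libraries. CPM was scaled within each set, and RPKM over all libraries with GENCODE M1 exon lengths. Alternatives were other size factors, filters, thresholds and fits, DESeq2 1.42.0, a replicate block, and leaving out each library. The edgeR script was tested on simulated data. Values by library are given for genes called with a log2 fold change of 1 or more in size at 5 CPM or more, and for the smallest adjusted p of each role in either set. Genes of related lists were named by the largest called change in each direction among those at a mean of 5 CPM or more. The members and lists were chosen with earlier results of these data known. Replicates of a group differed by more than sampling noise (chi-square per degree of freedom 2.06 to 5.22).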

Additional observations from a re-analysis of the deposited data

How the results depend on the processing

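No log2 fold change that was called in the main tests changed sign under any alternative. Requiring a log2 fold change of 1 or more in size left 1 gene lower and 9 higher in the knockdown, 0 and 2 in WT against LacZ, 5 and 0 in Mut against WT, 0 and 0 in Mut against LacZ, and 0 in LacZ against sh-Jmjd1a, which follows from the threshold itself. Leaving out each library in turn gave 12 lower and 24 to 26 higher genes in the knockdown, 9 to 11 and 10 to 13 in WT against LacZ, 13 to 17 and 18 to 19 in Mut against WT, 4 to 7 and 10 to 13 in Mut against LacZ, and 0 to 3 and 13 to 15 (14 to 18 in all) in LacZ against sh-Jmjd1a, where the 4 lower calls were all lost without LacZ replicate 2 and 2 were left without sh-Jmjd1a replicate 1 or LacZ replicate 3. Deviations of libraries with the same replicate number were at most weakly related. In the knockdown set r was -0.061 to 0.037. In the rescue set it was -0.012 to 0.067, against -0.088 to 0.041 for libraries with different numbers. The number was not taken as a pairing, and whether the rescue set holds a weak shared effect of it was not tested. With the replicate number as a block, 12 genes were lower and 25 higher in the knockdown, 14 and 12 in WT against LacZ, 18 and 19 in Mut against WT, 10 (from 6) and 15 in Mut against LacZ, and 20 were called in LacZ against sh-Jmjd1a. The cause of the change from 6 to 10 was not tested. At an adjusted p under 0.01 the lower genes of LacZ against sh-Jmjd1a went from 4 to 1. The numbers of matrix genes lower and higher in each comparison stayed within 1.5 times those reported under the other alternatives run. Depth limits the scarce genes: Eln, Mfap2, Mfap5, Emilin2, Loxl2 and Lama2 had large standard errors, and 6 genes had too few counts to test.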
